A study of Mus musculus with 28 samples.

Results

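Nodal, Lefty1, Lefty2, Tdgf1 and Gdf3 were followed through the neural differentiation of mouse P19 cells, an established embryonal carcinoma line that behaves much like early embryonic cells. They were 5 of the 55385 gene rows of the RNA table, found by their gene symbols (ENSMUSG00000037171.6, ENSMUSG00000038793.8, ENSMUSG00000066652.5, ENSMUSG00000032494.12 and ENSMUSG00000030117.5 in that order), and all 5 passed the filter on low counts that left 17789 genes for testing. The genes were chosen by measured values of the same libraries: their level at day 8 against day 4, and the lower level of Lefty1 with MS-275. Those values are therefore given as a description, without a test. The grounds for the choice did not include the day 2 DMSO levels of Nodal, Lefty2, Tdgf1 and Gdf3. Day 2 was therefore tested against day 0 for these 4. A return at day 8 presumes an earlier level, so the day 0 values were known when the genes were picked. The day 0 side of this test is thus not independent of the choice. Earlier results of these data were also known, so the day 2 side may not be independent either. The p-values of this test carry both limits.

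RNA was measured in 5 groups of 2 libraries. Day 0 cells were undifferentiated and had received neither retinoic acid nor solvent. In both day 2 groups the cells were in 1 µM retinoic acid for 2 days. After the first of these days they received 1 µL of the solvent DMSO or of MS-275, which inhibits class I histone deacetylases and was kept as a 10 mM stock. No final concentration of it is known here. Day 4 cells had 4 days of retinoic acid and were neural stem and progenitor cells (NSPCs) by label, and day 8 cells had the same 4 days, were replated on coated dishes and were then kept in neuronal medium. Retinoic acid, medium, replating and time thus cannot be told apart between day 4 and day 8. Nor can retinoic acid, solvent and time between day 0 and day 2 with DMSO. For day 4 cells no solvent is given, so solvent and time in retinoic acid cannot be told apart between day 2 with DMSO and day 4. Peak lists, 14 in all, covered histone H3 acetylated at lysine 9 (H3K9ac), crotonylated at lysine 9 (H3K9cr) and lactylated at lysine 18 (H3K18la), with 2 lists for each mark at day 4 and, at day 2, a single list for each mark with DMSO and with MS-275. There were 2 more of open chromatin (ATAC-seq) at day 4. No peak list of day 0 or day 8 cells was used here.

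Nodal is a secreted ligand of the TGF-beta family. It signals through activin receptors, and for this it needs Tdgf1 (Cripto), a co-receptor held at the cell surface. The activated receptors phosphorylate Smad2 and Smad3, which enter the nucleus with Smad4 and bind DNA together with partners such as Foxh1. Lefty1 and Lefty2 are secreted inhibitors that block Nodal and its co-receptor, and they are themselves switched on by the pathway, which makes a negative feedback loop. Gdf3 is a related ligand that uses the same co-receptor. In the early mouse embryo Nodal signalling keeps the epiblast from turning neural too soon and later patterns the primitive streak, the endoderm and the left side of the body.

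Total estimated counts ran from 18115926 to 19586374 per library, so that 1 count was worth 0.0495 to 0.0569 CPM (counts divided by the TMM-scaled library total). Markers of undifferentiated P19 cells, 12 genes, summed to 2272 and 2298 CPM at day 0, 51.7 and 53.9 with DMSO, 135 and 138 with MS-275, 4.15 and 5.67 at day 4, and 53.9 and 62.9 at day 8. Most of the sum was Pou5f1, at 1418 mean CPM at day 0 and 41.8 at day 8. Zfp42, with only 8 and 9 counts at day 0 and under the filter, was at 0 in every library after day 0. Markers of neural progenitors summed to 377 and 379 CPM at day 0 and to 2965 and 3210 at day 4, and markers of neurons to 450.2 and 462 at day 0 and to 3648 and 3915 at day 8. The marker lists were drawn up with earlier results of these data known, so counts of markers called are a description. The libraries are bulk RNA, so fewer cells of a type and less RNA per cell cannot be told apart. P-values set differences against the spread between libraries of the same group, estimated in 1 fit over all 10 libraries. The design text calls the 2 libraries of a group biological replicates and says no more about the cultures.

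Nodal (chr10:61417972-61425338, GRCm38.p6, plus strand), the ligand, was present at the start, higher at day 2 and close to the counting limit at day 4. It had 27.4 and 28.1 CPM in the day 0 libraries, 40.5 and 42.0 in the DMSO libraries, 6.98 and 8.71 in the MS-275 libraries, 0.0525 and 0.389 at day 4, and 5.17 and 5.24 at day 8. No 2 of the 5 groups overlapped, and from high to low they stood as DMSO, day 0, MS-275, day 8 and day 4. The day 4 values rest on 1 count and 7 counts, so their mean of 0.221 ± 0.238 CPM (SD, n = 2) is poorly fixed.

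The 250 bases before the Nodal start (chr10:61417722-61417971, GRCm38.p6, plus strand, RefSeq), which lay inside the DMSO peaks of all 3 marks, are shown because the peak lists differ there; the capitals mark its 1 motif match, a CCAAT box.
Nodal: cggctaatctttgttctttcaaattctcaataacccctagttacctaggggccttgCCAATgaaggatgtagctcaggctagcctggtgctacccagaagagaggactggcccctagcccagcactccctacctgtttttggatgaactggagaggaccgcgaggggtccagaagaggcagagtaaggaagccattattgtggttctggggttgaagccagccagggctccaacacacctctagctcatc
Of the 300-base window from 250 bases before to 50 after the start, 300 bases lay in a peak in the 3 DMSO lists and in the H3K9ac and H3K9cr lists with MS-275, 11 to 23 bases in 3 of the day 4 lists, and 0 in the other 6 lists.

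Lefty1 (chr1:180935022-180938401) is a feedback inhibitor of Nodal. It had 175 and 161 CPM at day 0, 184 and 202 with DMSO, 10.99 and 18.8 with MS-275, 1.78 and 2.00 at day 4, and 41.1 and 43.1 at day 8. The groups did not overlap, although DMSO (193 ± 13.4 CPM, SD, n = 2) and day 0 (168 ± 9.96) were only 1.15-fold apart. From there the order ran through day 8 and MS-275 down to day 4. The MS-275 libraries, at 14.9 ± 5.53 CPM, differed from each other more than those of the other groups did relative to their means.

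Lefty2 (chr1:180893108-180899107) is the other inhibitor and lies 35.9 kb from Lefty1. It had 11.8 and 10.9 CPM at day 0, 29.2 and 28.3 with DMSO, 8.12 and 10.9 with MS-275, 0.210 and 0.278 at day 4, and 4.45 and 4.61 at day 8. DMSO was the highest group and day 4 the lowest, whereas day 0 (11.4 ± 0.590 CPM, SD, n = 2) and MS-275 (9.51 ± 1.96) differed by less than the spread of the MS-275 libraries. The day 4 values rest on 4 and 5 counts.

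Lefty1 and Lefty2 share much of their sequence, so estimated counts may be split between them, and a long noncoding RNA annotated as Gm39715 overlaps Lefty1. The ratio of Lefty1 counts to Lefty2 counts depends on transcript length, but its change between libraries does not. It was 14.8 and 14.7 at day 0, 6.30 and 7.16 with DMSO, 1.35 and 1.73 with MS-275, 8.5 and 7.2 at day 4, and 9.24 and 9.36 at day 8. The ratio was thus lowest with MS-275 and highest at day 0, with no overlap between those groups and the others. Lefty1 was the more strongly reduced of the pair with MS-275, and at day 2 with DMSO Lefty2 was the one that stood further above its day 0 level.

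Tdgf1 (chr9:110939608-110946158, minus strand), the co-receptor, was abundant at day 0 and nearly gone by day 2. It had 120.1 and 125 CPM at day 0, 0.209 and 0.171 with DMSO, 1.63 and 1.69 with MS-275, 0.157 and 0.389 at day 4, and 3.93 and 5.09 at day 8. The DMSO libraries held 4 and 3 counts and the day 4 libraries 3 and 7, and these groups overlapped. Day 8 came next after day 0, ahead of MS-275. The pseudogene Tdgf1-ps1, a near copy that can share reads with Tdgf1, had 5.41 and 6.34 CPM at day 0, no counts with DMSO and at most 0.318 CPM in any later library.

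The 250 bases before the Tdgf1 start (chr9:110946159-110946408, GRCm38.p6, minus strand, RefSeq) are shown because the 3 MS-275 lists and 1 day 4 list of H3K18la had a peak over all of them, and the 3 DMSO lists had none; the capitals mark 1 SMAD box (CAGAC) and 2 SP and KLF boxes (GGGCGTGG).
Tdgf1: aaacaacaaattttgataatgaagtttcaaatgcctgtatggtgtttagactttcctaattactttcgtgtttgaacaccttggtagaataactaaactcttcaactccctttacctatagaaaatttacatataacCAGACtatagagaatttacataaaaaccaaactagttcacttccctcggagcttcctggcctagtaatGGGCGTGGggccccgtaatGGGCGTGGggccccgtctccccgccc
The GGGCGTGG boxes, at 45 and 26 bases before the start, are part of a 19-base repeat, GTAATGGGCGTGGGGCCCC, that stands in 2 adjoining copies. Of 32851 promoter windows of the same 300 bases 5.33% hold GGGCGTGG on either strand and 1.48% hold a repeat at least as long; this motif was chosen after the sequence was seen. CAGAC, found in 49.6% of windows, and CCAAT, in 37.4%, are common. Neither the FOXH1 letters TGTGGATT (0.855% of windows) and TGTGTATT (0.980%) nor the octamer ATTTGCAT (1.74%), the SMAD letters GGCGCC (11.9%), the nuclear receptor letters AGGTCA (16.3%) and TATAAA (13.6%) occur in the window of Nodal or Tdgf1 on either strand. A match is a description of letters, and its absence from these windows says nothing of the factors. The windows have a GC content of 54.0% for Nodal and 41.7% for Tdgf1, beside a median of 52.7%.

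Gdf3 (chr6:122605403-122610087), the related ligand, had 85.4 and 91.9 CPM at day 0, 7.70 and 6.77 with DMSO, 4.41 and 4.33 with MS-275, 1.05 and 1.11 at day 4, and 2.53 and 3.76 at day 8. The groups did not overlap and followed this order: day 0, DMSO, MS-275, day 8 and day 4. Gdf3 at day 8 stood at 3.55% of its day 0 mean.

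**Figure D1:**
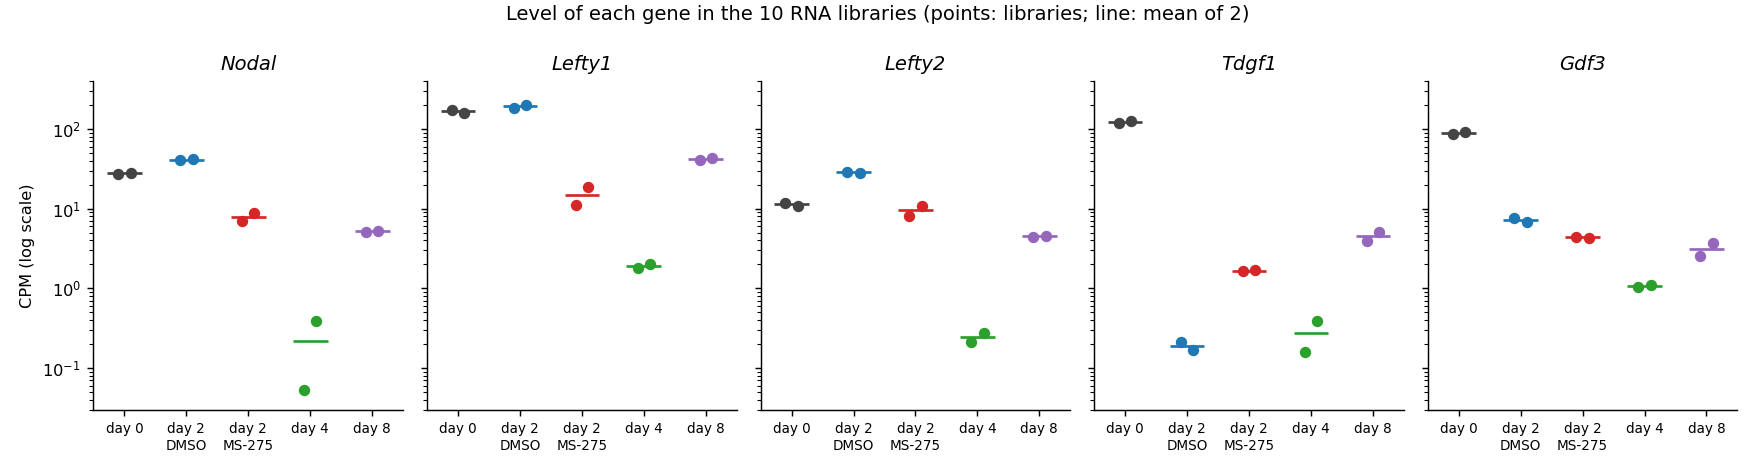
Level of each gene in CPM on a log axis, for the 5 groups of 2 libraries; points are libraries and the line is their mean. Nodal, Lefty1 and Lefty2 were high at day 0 and at day 2 with DMSO, whereas Tdgf1 was at 0.209 and 0.171 CPM with DMSO; CPM is not corrected for gene length, so heights are compared within a panel.

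The comparison of day 2 with day 0 asked how the pathway's genes stood after 2 days of retinoic acid (with DMSO). Of the 4 genes tested the ligand Nodal and the inhibitor Lefty2 rose, and the co-receptor Tdgf1 and the ligand Gdf3 fell. Nodal rose 1.49-fold (log2 0.57, SE 0.117, edgeR adjusted p = 4.18e-04) and Lefty2 2.53-fold (log2 1.34, SE 0.134, edgeR adjusted p = 1.89e-07). Tdgf1 fell 646-fold by its CPM, with a 95% counting interval of 312 to 1600 (fitted log2 -9.28, SE 0.184, edgeR adjusted p = 2.38e-16). Gdf3 fell 12.2-fold (log2 -3.61, SE 0.114, edgeR adjusted p = 7.00e-14). All 4 were called at an adjusted p under 0.05, as were 64.6% of all genes tested in this comparison, 32.4% higher and 32.2% lower, so that being called was common. In 41.3% of genes both DMSO libraries were above both day 0 libraries, and in 40% both were below. Of Tdgf1 0.155% of its day 0 mean was left. The markers of undifferentiated cells moved with Tdgf1 and Gdf3: 8 of the 10 tested fell and 0 rose, while Nanog, among those not called, had 9.04 and 9.37 CPM at day 0 and 6.39 and 6.65 with DMSO. Their part in the 2 falls was not tested.

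Between day 2 with DMSO and day 4 the 3 genes that had not been lower at day 2 came down to a few counts or, for Lefty1, to 70 counts over both libraries. Mean CPM at day 4 was 187-fold lower than with DMSO for Nodal (95% counting interval 96.6 to 443), 102-fold lower for Lefty1 (80.6 to 131) and 118-fold lower for Lefty2 (62.1 to 259). Without day 4 replicate 2 the Nodal ratio went from log2 -7.55 to -9.62, since 1 count is then left, and without day 4 replicate 1 it was -6.73. Gdf3 was 6.69-fold lower at day 4 (4.80 to 9.62), and Tdgf1, already at 7 counts over both DMSO libraries, had 10 counts at day 4, a ratio of 1.44 (0.486 to 4.38). These intervals cover counting error only. Between these groups 61.2% of all genes were called, 30.6% in each direction, and the libraries did not overlap in 40.1% (day 4 higher) and 39.9% (day 4 lower).

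At day 8 all 5 genes stood above day 4 in both libraries, which is the property they were chosen for. Mean CPM was 23.6-fold above day 4 for Nodal (95% counting interval 12.0 to 56.6), 22.3-fold for Lefty1 (17.5 to 28.7), 18.6-fold for Lefty2 (9.59 to 41.4), 16.5-fold for Tdgf1 (8.85 to 35.4) and 2.91-fold for Gdf3 (2.02 to 4.27). In this comparison 34.2% of all genes tested had day 8 libraries wholly above those of day 4 and 33.6% wholly below, 41.5% were called in either direction, and nothing is read from the count of 5. The genes differed in how far they came back. Lefty2 at day 8 stood at 39.9% of its day 0 mean, Lefty1 at 25.1% and Nodal at 18.8%, but Tdgf1 at only 3.67% and Gdf3 at 3.55%. These shares are a description; no test of their difference was made. Without day 4 replicate 2 the Nodal ratio of day 8 to day 4 was log2 6.63 in place of 4.56, and without day 4 replicate 1 it was 3.74. For Tdgf1 it was 4.84 in place of 4.04 without day 4 replicate 2.

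Several marker lists were higher in the day 8 libraries as well. Of all genes tested between day 4 and day 8, 21.7% were called higher and 19.8% lower. Of the 10 markers of neurons 8 rose from day 4 to day 8 and 1 fell. Of the 10 tested markers of undifferentiated cells 7 rose and 0 fell, and of the 8 tested markers of the floor plate, the ventral midline of the neural tube, 6 rose and 1 fell. The floor plate list summed to 120 and 117 CPM at day 4 and to 433 and 383 at day 8, most of it Ntn1 (110 and 373 mean CPM). Of the 9 tested genes of the primitive streak and endoderm list 3 rose and 3 fell. T (brachyury) rose 5.91-fold, from 0.907 to 5.33 mean CPM, Eomes 19.7-fold, and Foxa2 from 2 counts to 67, a ratio of 32.5 (95% counting interval 8.65 to 274). The log2 change of T was 2.56, against 4.04 without day 4 replicate 2 and 1.81 without day 4 replicate 1. Lhx1 fell from 154 to 68.3 mean CPM, Sox7 from 4.69 to 0.551 and Gata6 from 2.65 to 1.41. The list summed to 176 and 152 CPM at day 4 and to 87.8 and 85.8 at day 8, and most of each sum was Lhx1. Cer1 had at most 0.103 CPM and Gsc at most 0.265 at day 8. Of 5 germ cell markers 0 rose and 1 fell, and of 10 neural progenitor markers 3 rose and 5 fell. The part of any of these cell types in the day 8 levels was not tested.

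**Figure D2:**
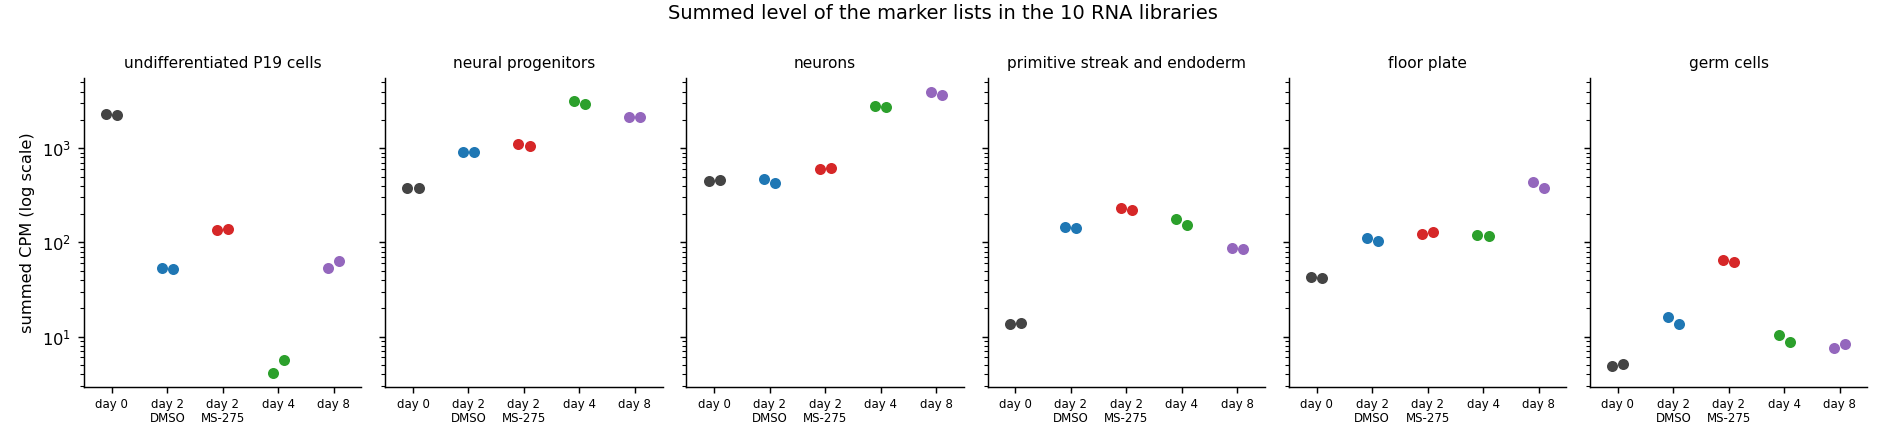
Summed CPM of the 6 marker lists on a log axis in the 10 RNA libraries, 1 point per library. The undifferentiated list dropped to 4.15 and 5.67 CPM at day 4 and stood at 53.9 and 62.9 at day 8, below its day 0 sums of 2272 and 2298.

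The day 2 libraries with MS-275 and with DMSO show how these genes stood under the inhibitor. With MS-275 the ligand and both inhibitors were lower and the co-receptor was higher. Mean CPM was 5.26-fold lower for Nodal (95% counting interval 4.65 to 5.95), 12.95-fold lower for Lefty1 (11.9 to 14.1) and 3.02-fold lower for Lefty2 (2.69 to 3.41). Lefty1 with MS-275 stood at 7.72% of its DMSO mean, and its lower library, at 10.99 CPM, was still above both day 4 libraries. Tdgf1 was 8.75-fold higher (4.01 to 22.5), from 7 counts over the DMSO libraries to 67, and reached only 1.66 ± 0.0410 CPM (SD, n = 2) against 123 ± 3.70 at day 0. Gdf3 was 1.66-fold lower (1.37 to 2.02); without TMM factors its log2 ratio was -0.59 in place of -0.73. In this comparison 63.3% of all genes were called, 31.9% higher and 31.4% lower, and the libraries did not overlap in 41.1% (MS-275 higher) and 40.4% (lower). The DMSO libraries are shared with the comparisons of day 2 with day 0 and of day 4 with day 2. The markers of undifferentiated cells were higher with MS-275 in 9 of the 10 tested cases and lower in 0, so that their sum, like Tdgf1, stood above DMSO while Nodal, Lefty1 and Lefty2 stood below. The primitive streak and endoderm list rose in 6 of 9 cases and fell in 0. Its sums went from 145 and 142 CPM to 231 and 223, of which Lhx1 made 138 and 208 mean CPM. The germ cell list rose in 3 of 5 and fell in 1, from 16.1 and 13.7 to 65.1 and 62.2. Most of these sums was Tfap2c, at 10.8 mean CPM with DMSO and 50.7 with MS-275. The neuron list rose in 6 of 10 cases and fell in 2, from sums of 467 and 428 CPM to 603 and 624. Of the 10 neural progenitor markers 4 rose and 6 fell, and of the 8 floor plate markers 3 rose and 1 fell. The part of these marker lists in the levels of the 5 genes was not tested.

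**Figure D3:**
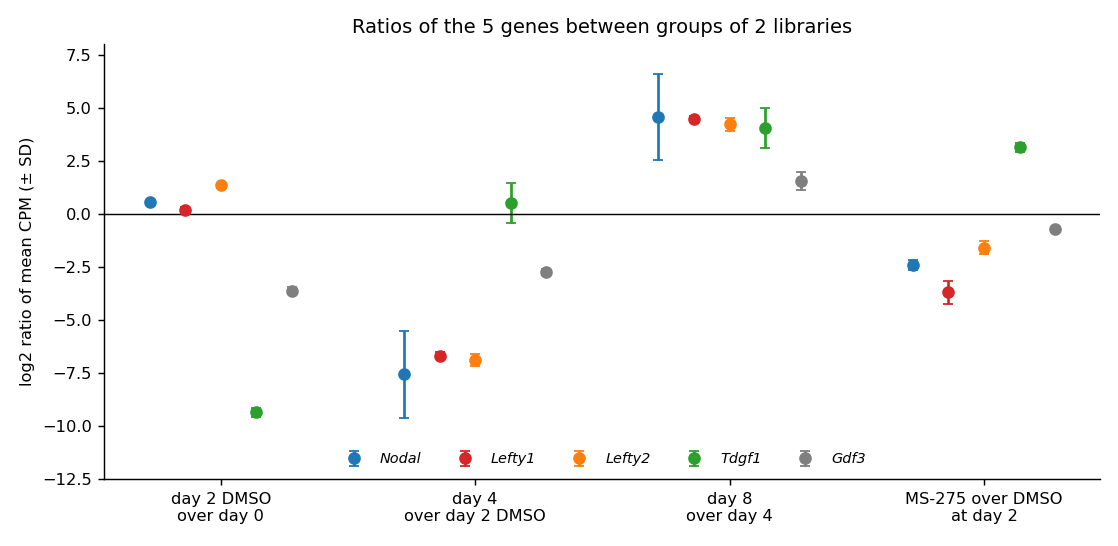
Log2 ratio of mean CPM between groups of 2 libraries for the 5 genes in 4 comparisons; bars are SDs combined from both groups. Nodal, Lefty1 and Lefty2 had ratios of the same sign in each comparison, and Tdgf1 lay apart from them at day 2, at -9.34 against day 0 and at 3.13 with MS-275.

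Across the 10 libraries, on the log2(CPM + 1) scale, Nodal had a Pearson correlation of 0.966 with Lefty2 and 0.953 with Lefty1, against 0.717 with Gdf3 and 0.396 with Tdgf1. Tdgf1 was nearest to Gdf3, at 0.887. The libraries come in 5 groups of 2, so these values describe group means more than 10 independent points. They also include the day 4 and day 8 levels, and for Lefty1 the MS-275 level, by which the genes were chosen. The choice itself thus favours likeness among the 5, and the ranks below are a description. Among 14646 genes ranked by correlation with Nodal, Lefty2 stood at rank 2 and Lefty1 at rank 11, Gdf3 at rank 1284 and Tdgf1 at rank 4256. The 3 genes most like Nodal were Slc10a3 (0.984), Lefty2 and Zc3hc1 (0.963). Slc10a3 was also first for Lefty2 (0.981), followed by Nodal and Las1l (0.964). For Lefty1 they were Ago2 (0.979), Ptchd1 (0.978) and Iqgap2 (0.965). For Tdgf1 they were Gldc (0.994), the glycine-cleavage enzyme, Cyp2b23 (0.991) and Samd4 (0.9903), and for Gdf3 Rpl7l1 (0.995), Dbt (0.994) and Wwc2 (0.994). Likeness is of shape and not of size: Zc3hc1 moved only between 42.6 and 57.3 mean CPM while Nodal went from 0.221 to 41.2.

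The other genes of the pathway, 41 listed by role, gave 37 with enough counts to test; Gdf1, the second co-receptor Cfc1 and the genes Cer1 and Gsc were too low. Earlier results of these data were known when the list was drawn up. Its counts and p-values, here and in the comparisons below, carry that limit. From day 0 to day 2 with DMSO 13 rose and 18 fell, where 32.4% of all genes tested were called higher and 32.2% lower. The median log2 change was -0.09 beside 0.01 over all genes. Receptors mostly rose. The type I receptor Acvr1b fell 1.59-fold to 72.1 ± 3.39 CPM, and the type II receptors Acvr2a and Acvr2b rose 2.24-fold to 73.2 ± 6.16 and 1.62-fold to 77.1 ± 0.337 (SD, n = 2). Acvr1c, a further type I receptor, rose 19.96-fold, from a day 0 mean of 0.109 CPM. Among the genes that carry the signal inward Smad3 rose 2.41-fold to 95.5 ± 0.985 CPM and Foxh1, the DNA-binding partner, fell 2.91-fold to 36.5 ± 0.141. Smad2 (85.5 and 89.4 mean CPM at day 0 and day 2) and Smad4 (130.3 and 133) were not called. The inhibitors fell in 4 of 5 cases, among them follistatin, Fst, 3.66-fold. The targets went apart: Lhx1 rose 497-fold to 138 ± 2.66 CPM and Wnt3 65.3-fold to 18.1 ± 0.0599, whereas Eomes fell 10.96-fold and Pmepa1 3.54-fold. Lhx1 was near the counting limit at day 0, and its log2 change of 8.96 became 10.27 when day 0 replicate 2 was left out and 8.25 when day 0 replicate 1 was. The genes given here with a fold had an edgeR adjusted p of 1.04e-05 or less.

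From day 2 with DMSO to day 4, 14 of the 37 rose and 10 fell, where 30.6% of all genes tested were called in each direction. The median log2 change was 0.10 beside 0 over all genes. Foxh1 had 36.6 and 36.4 CPM with DMSO and 0.840 and 0.389 at day 4, a 58.3-fold fall (log2 -5.87, SE 0.191, edgeR adjusted p = 1.03e-13). Without day 4 replicate 1 its log2 change was -6.52. It was the largest fall among called pathway genes with a mean of at least 1 CPM over both groups, ahead of Acvr1c (10.3-fold; log2 -3.37, and -4.28 without day 4 replicate 1) and the repressor Ski (3.43-fold). The signal-carrying Smads stayed near their level: Smad2 rose 1.23-fold to 110 ± 0.216 CPM, and Smad3 (log2 -0.05, SE 0.0616) and Smad4 (log2 0.10, SE 0.0579) were not called. Acvr1b rose 1.30-fold, and Acvr2b was not called (log2 0.01, SE 0.0664). Acvr2a rose 1.17-fold (edgeR adjusted p = 0.0174). That call was lost without DMSO replicate 1 (edgeR adjusted p = 0.241) and without day 4 replicate 1 (edgeR adjusted p = 0.0716), and the lowest edgeR adjusted p over its 10 alternatives was 0.00637. The largest rises among called pathway genes with such a mean were those of Wnt3, 3.24-fold, the convertase Pcsk5, 2.19-fold, and the inhibitor Dand5, 2.12-fold.

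From day 4 to day 8, 17 rose and 8 fell, with a median log2 change of 0.21 beside -4.6e-05 over all genes, where 21.7% of genes were called higher and 19.8% lower. Among called genes with a mean of at least 1 CPM over both groups the largest rises were those of Fst, Eomes and Foxh1. Fst had 1.102 and 0.944 CPM at day 4 and 21.9 and 27.0 at day 8, 23.7-fold higher (log2 4.57, SE 0.248, edgeR adjusted p = 3.59e-10). Eomes, a T-box factor switched on by Nodal signalling in the embryo, had 0.525 and 0.333 CPM at day 4 and 7.60 and 9.69 at day 8, 19.7-fold higher (log2 4.303, SE 0.284, edgeR adjusted p = 3.30e-09). Foxh1 rose 9.52-fold to 5.96 ± 0.266 CPM, against 106 ± 2.23 at day 0 (SD, n = 2); its log2 change of 3.25 was 3.90 without day 4 replicate 1. Wnt3 fell 2.77-fold, Lhx1 2.26-fold and the inhibitory Smad7 1.82-fold. Of the receptors Acvr1b rose 1.46-fold to 137 ± 0.279 CPM and Acvr2a 1.30-fold, while Acvr2b fell 1.13-fold (edgeR adjusted p = 0.0428), a call lost under 7 of its 10 alternatives, with adjusted p from 0.0349 to 0.159. These 7 included leaving out day 4 replicate 1, day 4 replicate 2 or day 8 replicate 1. Smad4 fell 1.18-fold, and Smad2 and Smad3 were not called (log2 -0.03, SE 0.0584, and -0.05, SE 0.0617).

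With MS-275 Smad2, Smad3, Smad4 and Foxh1, which carry the signal, were lower, and so were 5 of the 6 listed regulators that act on them. Of the 37 genes 10 rose and 18 fell, where 31.9% of all genes tested were called higher and 31.4% lower. The median log2 change was -0.22 beside 0.01 over all genes. The regulators that fell were Trim33, Drap1, Tgif1, Tgif2 and Ski, several of which are repressors of the signal; Ppm1a, a Smad phosphatase, was not called. Smad3 had 94.8 and 96.2 CPM with DMSO and 35.0 and 36.6 with MS-275, a 2.67-fold fall (log2 -1.42, SE 0.0655, edgeR adjusted p = 2.34e-11). Foxh1 fell 2.29-fold to 16.0 ± 2.65 CPM, Smad4 1.36-fold to 97.9 ± 3.65 and Smad2 1.19-fold to 75.0 ± 3.35 (SD, n = 2). Acvr2b fell 2.45-fold and Acvr2a 1.45-fold, while Acvr1b rose 1.63-fold. In the other direction the inhibitor Fstl3 rose 24.5-fold to 6.16 ± 0.189 CPM, and T, a primitive streak factor, 16.1-fold to 4.92 ± 0.509. Fgf8 had 95 counts with MS-275 against 3 with DMSO, a ratio of 28.8 with a 95% counting interval of 9.57 to 142; its fitted log2 change of 4.75 was 8.48 without DMSO replicate 1 and 3.85 without DMSO replicate 2. Inhba and Inhbb, which encode activin subunits and are named after their values were seen, were the 2 ligands that rose; Inhbb had no counts with DMSO and was at least 7.59-fold higher against a floor of 3 counts over the DMSO group.

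The split with MS-275 depends on scaling. With library size alone, an alternative added after the data were seen, the median of all genes moved from log2 0.01 to 0.14, and 61.2% of called genes were higher in place of 50.4%. The pathway then gave 11 rises and 12 falls, and the 10 carriers and regulators of the signal 5 falls and 1 rise, with 9 of 10 still below 0. Smad2 lost its call (edgeR adjusted p = 0.114; 5.84e-04 to 0.0254 under the other alternatives). The ratios of the 5 genes kept their sign under this scaling.

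**Figure D4:**
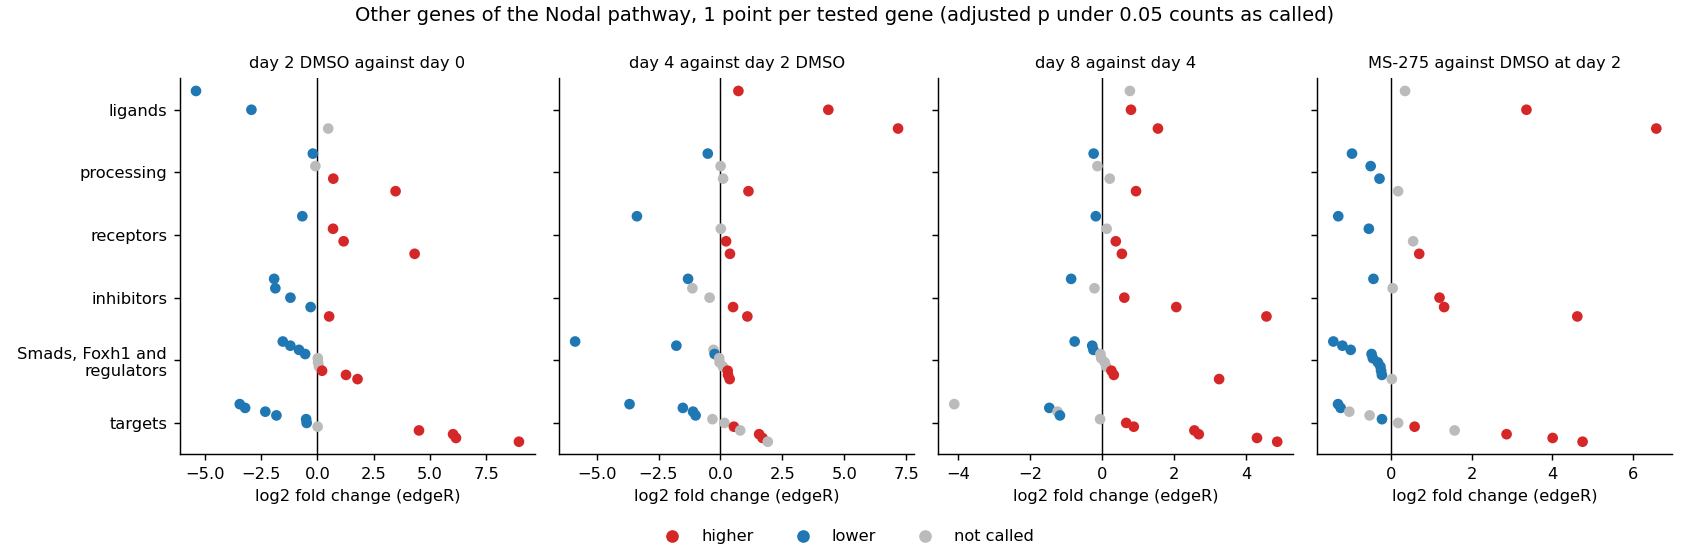
Log2 fold change from edgeR (horizontal axis) of the 37 tested pathway genes by role, in 4 comparisons, with calls at an adjusted p under 0.05 in red and blue. With MS-275, 9 of the 10 genes in the row of Smads, Foxh1 and their regulators were called lower; fitted values of genes with no counts in 1 group, such as Inhbb, are no measure of size.

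Peaks near the 5 genes were taken from the deposited lists, each within 1 kb of the gene's ends. Fold enrichment is the authors' value and is read only within a list, as a percentile; the depth of these libraries is unknown. Of 70 pairs of gene and list 42 held a peak. Lefty1 had one in 12 of 14 lists, Nodal in 11, Tdgf1 in 10, Gdf3 in 6 and Lefty2 in 3. In the day 2 DMSO lists 4 of 5 genes had a peak for each mark, where 65.2% (H3K9ac), 64.8% (H3K9cr) and 60.4% (H3K18la) of all protein-coding genes had one. At day 4 it was 3 and 3 genes in the lists of H3K9ac (67.8% and 67.7% of all genes), 2 and 2 for H3K9cr (66.0% in each) and 2 and 2 for H3K18la (61.5% and 61.8%). In open chromatin at day 4 it was 0 and 2 (61.5% and 58.9%). With MS-275 it was 5, 5 and 4 for H3K9ac, H3K9cr and H3K18la (72.4%, 71.1% and 31.7%). With 5 genes none of these counts was tested.

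At Nodal the DMSO peaks were wide and strong and lay over the start of the gene. The H3K9ac peak ran from -313 to 2841 bases relative to the start, over the whole upstream sequence, with a fold enrichment at percentile 84.6 and a width at percentile 95.8 of its list. The H3K9cr peak (percentiles 86.7 and 94.5) ran from -301 to 2618 bases, and the H3K18la peak (90.1 and 97.1) from -313 to 1990. At day 4, when Nodal had 1 and 7 counts, the H3K9ac peak ran from 39 to 1087 bases after the start in replicate 1 (fold percentile 59.5) and from 27 to 1237 in replicate 2 (45.2). H3K9cr peaks of 866 and 1173 bases lay there too (45.0 and 41.0), and neither H3K18la list had a peak within 18 kb of the gene. With MS-275 the H3K9ac peak was 8187 bases wide, from -5167 to 3019 relative to the start (fold percentile 93.8, width percentile 99.0), and the H3K9cr peak 8067 bases, while the H3K18la list held only 2 peaks, of at most 379 bases, inside the gene. The lists differ in length and width, so this is not a measured change: the H3K9ac list held 26555 peaks with a median width of 1069 bases with DMSO and 84418 with a median of 827 with MS-275. Lower Nodal RNA with MS-275 thus stood beside a wider H3K9ac peak.

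The Lefty1 peaks lay around its low-coordinate end. With DMSO a single H3K9ac peak ran from -2023 to 2800 bases relative to that end (width percentile 99.1), and H3K9cr and H3K18la peaks began at -1895 and -2049. At day 4 the same stretch held separate peaks, 2 in each H3K9ac and H3K9cr list and 3 in each H3K18la list. In the day 4 lists of H3K18la the peak before the gene was at fold percentile 51.0 in replicate 1 and 87.7 in replicate 2, so the replicates differ in its rank. With MS-275 the H3K9ac and H3K9cr peaks covered 89.6% and 97.4% of the gene with 1 kb on each side, and H3K18la peaks 15.4%.

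Lefty2 differed from Lefty1 in the lists. Within 1 kb only 3 lists had a peak: H3K18la with DMSO, at fold percentile 1.81, and H3K9ac and H3K9cr with MS-275, where peaks of 10683 and 11289 bases reached in from outside. Further out, all 12 ChIP lists held a peak before the low-coordinate end, or one spanning that stretch, from -5.17 to -2.44 kb for H3K9ac with DMSO, and 1 of the 2 lists of open chromatin held one from -4.53 to -3.95 kb. With the window widened to 5 kb the count of pairs with a peak was 60 of 70.

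At Tdgf1 the peaks sat near the start on the minus strand, at the high-coordinate end. With DMSO, when Tdgf1 was at 4 and 3 counts, peaks of H3K9ac and H3K9cr lay 0.428 and 0.410 kb beyond that end, at fold percentiles 28.7 and 23.3, and H3K18la had none within 7 kb. With MS-275 H3K9ac and H3K9cr peaks of 5072 and 4056 bases covered the start (85.4 and 87.9), and an H3K18la peak of 869 bases did so as well (66.8). At day 4 the H3K9ac peaks were 236 and 247 bases wide and at percentiles 14.04 and 11.1. An H3K18la peak of 861 bases (24.0) also covered the start in day 4 replicate 1, but not in replicate 2, when Tdgf1 had 3 and 7 counts. Higher Tdgf1 RNA with MS-275 thus stood beside peaks of all 3 marks over its start. The H3K9ac list held 84418 peaks with MS-275 and 26555 with DMSO, so this is not a measured change.

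Gdf3 had DMSO peaks of all 3 marks inside the high-coordinate end of the gene, at fold percentiles 44.4 for H3K9ac, 41.7 for H3K9cr and 8.02 for H3K18la, and no peak within 1 kb in any day 4 list. With MS-275 it was the gene with most H3K18la peaks of the 5, 5 in number and covering 44.8% of the gene with its 1 kb margins, of which 2 were at fold percentiles 99.0 and 99.5. H3K9ac and H3K9cr peaks with MS-275 covered 70.7% and 63.4%. Gdf3 RNA was lower with MS-275 than with DMSO at the same time.

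**Figure D5:**
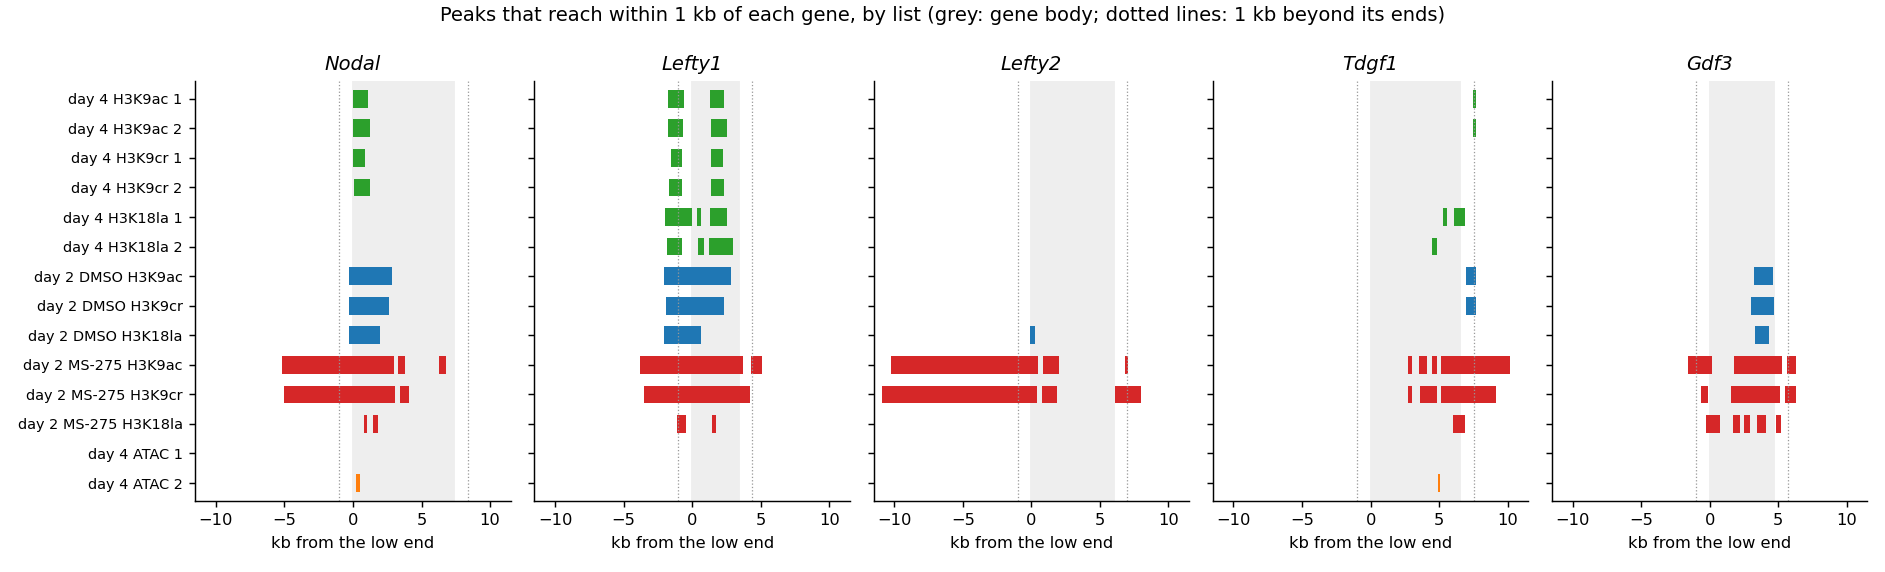
Peaks of the 14 lists that reach within 1 kb of each gene, as distance in kb from the gene's low-coordinate end; grey is the gene body and dotted lines mark 1 kb beyond it. Day 4 peaks are in green, DMSO in blue, MS-275 in red and open chromatin in orange; the longest bars are those of MS-275 at Lefty2, of 10683 and 11289 bases.

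The protein-coding neighbours, up to 2 on each side of a gene, did not share one pattern with the 5 genes. Tmem63a, 3.88 kb from Lefty1, had 30.9 and 34.0 CPM with DMSO and 32.4 and 32.9 with MS-275, and was not called (log2 0.01, SE 0.0863). Eif4ebp2, 3.15 kb from Nodal, rose 1.52-fold with MS-275. Apobec1, 2.38 kb from Gdf3, fell 10.4-fold from day 0 to day 2, rose 4.28-fold with MS-275 and fell 4.77-fold from day 4 to day 8, when Gdf3 was higher. Nanog, 97.4 kb from Gdf3, rose 10.6-fold from day 4 to day 8 and 1.93-fold with MS-275. Lrrc2, 5.39 kb from Tdgf1, had 40 and 15 counts at day 0, 0 and 1 with DMSO and 10 and 5 with MS-275. It had 0 and 0 counts at day 4 and 5 and 3 at day 8. Like Tdgf1 it was thus highest at day 0 and lowest with DMSO and at day 4, though on few counts. Als2cl, 39.1 kb from Tdgf1, fell 3.92-fold from day 0 to day 2 and rose 4.88-fold with MS-275. All these calls had an edgeR adjusted p of 0.00283 or less.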

How the data were processed

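RNA was measured in 10 libraries and chromatin in 14 peak lists. The authors deposited estimated counts per gene, with Salmon 1.1.0 named in the submitters' processing notes; no source used here says how transcripts were summed. The estimates were rounded to whole counts. Peak lists have the columns of MACS2 tables per the file headers (notes name MACS2 2.2.7.1, Bowtie2 2.4.1, GRCm38): position, pileup signal, −log10 p-value and q-value (deposited, −log10 scale) and fold enrichment, a ratio, all the authors' values. No caller settings are known.

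The members and gene lists were chosen with earlier results of these data known. Gene identifiers were matched to symbols for 55144 of 55385 rows. Tests used edgeR 4.0.16 (R 4.3.3): filterByExpr, TMM, 1 quasi-likelihood fit over all 10 libraries, Benjamini-Hochberg adjustment over 17789 genes, threshold 0.05; it was tested on simulated data. Ratios of mean CPM carry exact (Clopper-Pearson) 95% counting intervals. Likeness used log2(CPM + 1). Named genes were the 5 members, the core Acvr1b, Acvr2a, Acvr2b, Smad2, Smad3, Smad4 and Foxh1, per comparison the 3 largest rises and falls of called pathway genes with a mean of at least 1 CPM, the 3 genes most like each member and the nearest neighbours; some named by this rule are not reported here. Positions and promoters are RefSeq's, GRCm38.p6; the promoter table held Nodal and Tdgf1. Alternatives were DESeq2 (1.42.0) with its size factors or test, library size alone, no filter, the 4 libraries compared alone, the replicate number as a block, and leaving out each library.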

Additional observations from a re-analysis of the deposited data

How the results depend on the processing

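All 4 members tested between day 2 and day 0 were called under each of the 10 alternatives. Counts of called pathway genes stayed within 1.5 times the main count under every alternative run: 28 to 32 for day 2 against day 0, 20 to 26 for day 4 against day 2, 21 to 25 for day 8 against day 4 and 23 to 28 for MS-275. Leaving out 1 library gave 28 to 32, 20 to 20, 21 to 24 and 25 to 25 in the same order. Replicate numbers did not pair libraries: over 10 pairs of groups the differences between replicates correlated at -0.07 to 0.09, and 0 were over 0.1. With the replicate number as a block the 4 comparisons gave 31, 24, 24 and 28 pathway calls and 4 members, against 31, 24, 25 and 28 without it.

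The ratio of Tdgf1 at day 4 to day 2 with DMSO, log2 0.52 on 10 against 7 counts, was -0.27 when day 4 replicate 2 was left out and 1.03 when replicate 1 was; with 3 to 7 counts a library its direction is not fixed. The log2 ratio of Nodal at day 8 to day 0 was -2.37 with library size alone in place of -2.41. The number of pairs of gene and list with a peak, 42, was 38 inside the gene ends, 60 within 5 kb and 37 for peaks with −log10 q of at least 5. Counts of 1 to 10 per library limit Nodal, Lefty2 and Tdgf1 at day 4 and Tdgf1 with DMSO, and the peak lists give no depth.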
